A study of Mus musculus with 2 samples.

Results

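The 8 genes described here encode the mitochondrial machinery that builds iron-sulfur clusters: Iscu, Nfs1, Lyrm4, Hscb, Glrx5, Isca1, Isca2 and Nfu1. They were chosen by symbol, and all 8 were matched among 43346 annotated genes, of which 21474 were protein-coding. The values come from polyA RNA-seq, in paired ends, of G1E-ER4, an immortalized mouse erythroid line in which Gata1 has been restored. In this line Gata1 is supplied as a fusion to an estrogen receptor domain that 17beta-estradiol switches on. All the cells had received 10 nM 17beta-estradiol for 7 hours, and the 2 libraries, replicate 1 and replicate 2, form 1 group. No untreated cells were analysed here, so no value below is an effect of estradiol. The labels number the libraries as biological replicates but trace both to the same source sample, so the SDs measure a spread that may be technical. The p-values printed below allow for counting noise only and measure no spread between cultures. G1E-ER4 is a single line, and nothing here shows how another erythroid culture would behave.

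Iron-sulfur clusters are small cofactors of iron and sulfide that carry electrons or hold enzymes in shape. In the mitochondrion the cysteine desulfurase Nfs1, held in a complex with the small protein Lyrm4, takes sulfur from cysteine, and the cluster is put together on the scaffold protein Iscu. The co-chaperone Hscb helps to move the cluster from Iscu to the glutaredoxin Glrx5. Isca1, Isca2 and Nfu1 act later, in the making and delivery of the larger clusters used by respiratory enzymes and by lipoic acid synthase. Red cell precursors draw on this pathway because mammalian ferrochelatase, which puts iron into heme, holds a cluster, and because the iron regulatory protein Aco1 binds RNA only when it lacks one. Loss of Glrx5 causes anemia in zebrafish and sideroblastic anemia in people.

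For 3 of the 8 genes the deposited transcript tables divided the signal among several annotated forms, and the exon ends at which these forms part are shown here so that the shares given later can be read against them. Each stretch is coding sequence from GENCODE M21 on GRCm38, 5′ to 3′. The shared exon is in lower case and capitals mark the bases that follow it in each form. In Iscu (chromosome 5, plus strand), exon 4 ends at 113776849 in Iscu-201 and is joined to exon 5, which starts at 113777833. In Iscu-203 exon 4 runs on for 229 bases, from 113776850 to 113777078, and in Iscu-202 for 949 bases, to 113777798. The added stretch starts with GT, the pair of bases that usually opens an intron.
Iscu-201: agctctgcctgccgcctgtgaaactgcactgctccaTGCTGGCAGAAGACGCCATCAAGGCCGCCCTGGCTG
Iscu-203: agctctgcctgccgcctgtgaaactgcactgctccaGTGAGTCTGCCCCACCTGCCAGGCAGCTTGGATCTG
The open reading frame goes through the join in both forms and comes to 168 codons in Iscu-201 and 209 codons in Iscu-203, whose stop codon lies in the extended exon 4 (113777056 to 113777058). Nfs1 lies on the minus strand of chromosome 2. Its exon 3 ends at 156142126 in Nfs1-201 and is joined to exon 4, whereas in Nfs1-202 it runs on for 339 bases, to 156141787, and is the last exon.
Nfs1-201: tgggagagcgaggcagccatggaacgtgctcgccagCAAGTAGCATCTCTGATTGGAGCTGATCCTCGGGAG
Nfs1-202: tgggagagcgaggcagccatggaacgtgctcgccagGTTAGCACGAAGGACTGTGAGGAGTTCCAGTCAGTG
The reading frame of Nfs1-202 closes in that extension after 148 codons, against 459 codons in the 13 exons of Nfs1-201. In Nfu1 (chromosome 6, plus strand), exon 5 ends at 87020842 in Nfu1-201 and 3 bases earlier, at 87020839, in Nfu1-202, a difference of 1 codon in 256. Capitals mark those 3 bases, and Nfu1-202 has none.
Nfu1-202: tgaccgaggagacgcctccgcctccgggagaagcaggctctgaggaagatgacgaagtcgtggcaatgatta
Nfu1-201: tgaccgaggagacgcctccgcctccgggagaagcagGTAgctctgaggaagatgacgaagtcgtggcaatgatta
A further form, Nfu1-206, holds an inserted exon of 219 bases (87016176 to 87016394) after exon 3, and its model has no stop codon. Capitals mark the start of the inserted exon.
Nfu1-206: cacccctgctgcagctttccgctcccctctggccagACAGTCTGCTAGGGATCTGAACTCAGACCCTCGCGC

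**Figure D1:**
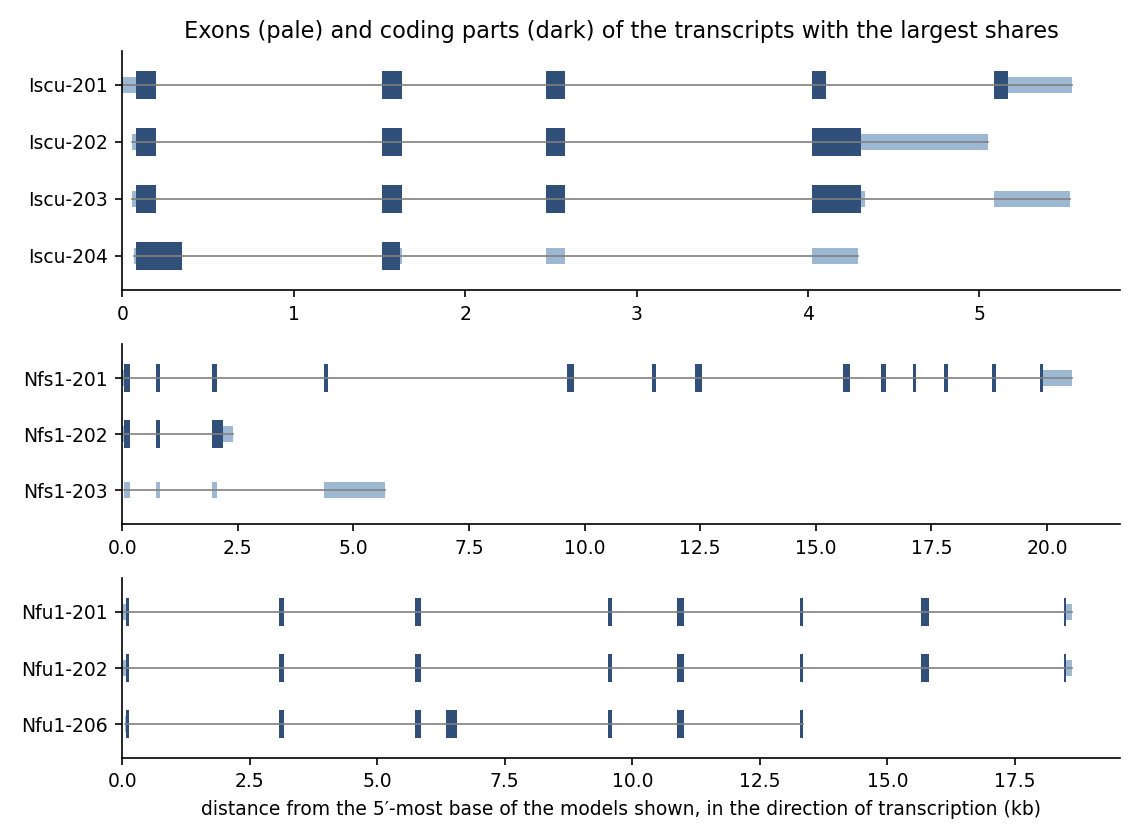
Exon structure of the transcripts of Iscu, Nfs1 and Nfu1 with the largest shares in these libraries, in GENCODE M21. The horizontal axis gives the distance in kilobases from the 5′-most base of the models shown, in the direction of transcription; pale boxes are exons, dark boxes are their coding parts and lines are introns. Iscu-202 and Iscu-203 have a longer exon 4 than Iscu-201, and Nfs1-202 stops at exon 3.

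Replicate 1 held 59610963 expected counts and replicate 2 held 44689404, where an expected count is the estimated number of fragments of a gene. Of 12 erythroid marker genes all 12 were detected, which here means that replicate 1 and replicate 2 each gave at least 1 TPM (transcript abundance corrected for length and for library total). The erythroid markers summed to 25067 TPM in replicate 1 and 15888 TPM in replicate 2. Of these sums, the 3 globin genes Hbb-bs, Hba-a1 and Hba-a2 held 20909 TPM in replicate 1 and 11890.2 TPM in replicate 2. The other 9 markers held 4158 TPM in replicate 1 and 3997 TPM in replicate 2. Those 9 include Gata1, at 1251 TPM in replicate 1 and 872 TPM in replicate 2. Gata1 is supplied to this line, so its detection is no evidence of cell type. By scaled counts 7 of the 12 were higher in replicate 1, and Klf1, at 984 TPM in replicate 1 and 1394 TPM in replicate 2, was among those that were not. The 7 megakaryocyte markers summed to 105 TPM in replicate 1 and 109.6 TPM in replicate 2, and 4 of them were detected. Gp1ba had 52.6 TPM in replicate 1 and 52.7 TPM in replicate 2. Gp5 had 32.6 TPM in replicate 1 and 39.6 TPM in replicate 2, and Vwf was at 0. The 7 myeloid and macrophage markers summed to 27.1 TPM in replicate 1 and 28.6 TPM in replicate 2, nearly all of it Spi1, with Adgre1 at 0. Of these, Mpo, Elane and Cebpe had 0, 1 and 2 counts in replicate 1 and 24, 10 and 15 counts in replicate 2. The mast cell list summed to 8.65 TPM in replicate 1 and 7 TPM in replicate 2, and the lymphoid list and the endothelial and stromal list each to less than 2 TPM in both. The line is labelled male, but 4 Y-linked genes (Uty, Kdm5d, Ddx3y and Eif2s3y) had 0 counts in replicate 1 and in replicate 2. Whether any of these differences took part in those below was not tested.

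All 8 assembly genes were detected, against 8219 of all 21474 protein-coding genes (38.3%). Their mean levels ran over a 640-fold range and were dominated by Glrx5, whose transcripts made up 74.2% of the summed TPM of the 8 genes in replicate 1 and 80.9% in replicate 2. From high to low, the order of mean TPM was Glrx5, Isca1, Iscu, Nfs1, Nfu1, Hscb, Isca2 and Lyrm4. The values of Iscu overlapped those of Nfs1, those of Nfs1 overlapped those of Nfu1, and those of Nfu1 overlapped those of Hscb. For these neighbours the difference in mean TPM was not larger than the spread between the libraries. The other neighbours in the order did not overlap. Within each library Iscu held rank 3 of the 8. Nfs1, Nfu1 and Hscb held ranks 5, 4 and 6 in replicate 1 and ranks 4, 6 and 5 in replicate 2. Nfs1 was thus above Hscb in both libraries, and the place of Nfu1 changed. The median over the 8 genes was a mean TPM of 44.1, against 20.8 over the 8219 detected protein-coding genes. In bulk RNA, fewer cells that express a gene and less of its RNA per cell cannot be told apart.

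**Figure D2:**
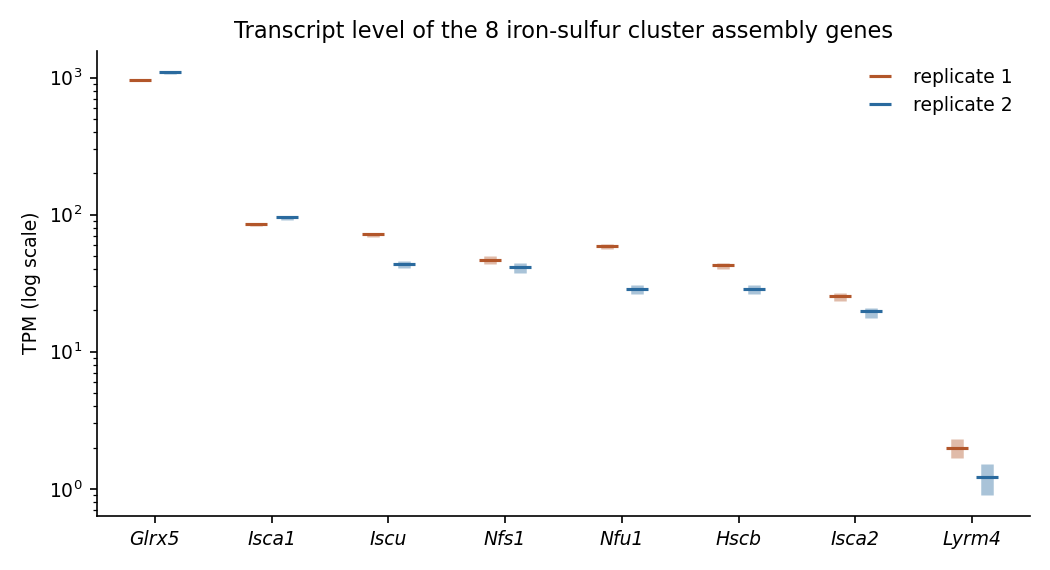
TPM of the 8 iron-sulfur cluster assembly genes in replicate 1 and replicate 2, on a log axis, in the order of their mean level. Horizontal ticks are the deposited TPM and shaded bars the deposited credibility intervals, which belong to the posterior mean estimate of TPM. Glrx5 lies at 962 TPM in replicate 1 and 1099 TPM in replicate 2, Lyrm4 between 1 and 2 TPM, and the other 6 genes between 19.7 and 95.7 TPM.

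Nfs1, the sulfur donor, lies on chromosome 2 (156123639 to 156144186). Its level was 47.0 TPM in replicate 1 and 41.5 TPM in replicate 2, a mean of 44.3 ± 3.90 TPM (SD, n = 2). The values differed little between the libraries, and the deposited credibility intervals, 43.5 to 49.6 TPM in replicate 1 and 37.6 to 44.2 TPM in replicate 2, overlapped. Among the 8 genes, only Nfs1 had overlapping intervals. The share over all genes was not computed, so this cannot be read as a trait of the 8. Nfs1 shares 256 exonic bases with Gm28036 on the same strand, which had 192 counts in replicate 1 and 127 in replicate 2, and strand cannot separate their fragments. It also shares 148 exonic bases with Romo1 on the other strand, which had 9087 counts in replicate 1 and 6800 in replicate 2, and the strand setting of the counting was not given in the sources used here.

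Lyrm4, also known as Isd11, is the small subunit without which Nfs1 is unstable. It lies on chromosome 13 (35978395 to 36117526) and spans 139132 bases, the longest of the 8 genes. Lyrm4 had the lowest level of the 8, at 2.00 TPM in replicate 1 and 1.22 TPM in replicate 2, a mean of 1.61 ± 0.552 TPM (SD, n = 2). These levels rested on 138 counts in replicate 1 (95% exact Poisson interval 116 to 163) and 59 counts in replicate 2 (44.9 to 76.1), intervals that cover counting error only. Its level was above only 5.18% of the detected protein-coding genes in replicate 1 and 1.84% in replicate 2. The transcript level of its partner Nfs1 was 23.5 times that of Lyrm4 in replicate 1 and 34.0 times in replicate 2. The gene Fars2 runs through the same locus on the other strand and shares 115 exonic bases with Lyrm4, with 883 counts in replicate 1 and 636 in replicate 2. The deposited Lyrm4 model is 1515 bases long and that of GENCODE M21 is 2086, and fragments from bases outside the deposited model were not part of these counts.

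Iscu, the scaffold, lies on chromosome 5 (113772748 to 113778288). Its level was 72.4 TPM in replicate 1 and 43.8 TPM in replicate 2, a mean of 58.1 ± 20.2 TPM (SD, n = 2), so the library with the higher level had 1.65 times the other. The level of Iscu over that of Nfs1 was 1.54 in replicate 1 and 1.06 in replicate 2. Iscu and Lyrm4 kept nearly the same ratio in both libraries, 36.2 in replicate 1 and 35.9 in replicate 2.

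Hscb, the co-chaperone that hands the finished cluster on, lies on the same chromosome (110829070 to 110839777). Its level was 42.7 TPM in replicate 1 and 28.9 TPM in replicate 2, a mean of 35.8 ± 9.81 TPM (SD, n = 2), again higher in replicate 1 with intervals apart. The mitochondrial Hsp70 gene Hspa9, whose product works with Hscb, stood at 60.01 TPM in replicate 1 and 49.1 TPM in replicate 2, which is 1.40 and 1.70 times the level of Hscb in replicates 1 and 2.

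Glrx5, the glutaredoxin that takes over the cluster, lies on chromosome 12 (105032688 to 105042906). Its level was 962 TPM in replicate 1 and 1099 TPM in replicate 2, a mean of 1030.2 ± 97.2 TPM (SD, n = 2). It was above 99.4% of all 21474 protein-coding genes in both libraries, and 130 of them had a higher mean TPM. Its mean was 11.3 times that of Isca1, the second of the 8 genes, and the ratio of Glrx5 to Isca1 was 11.2 in replicate 1 and 11.5 in replicate 2. The cytosolic glutaredoxin gene Glrx3 was far lower, so that Glrx5 stood at 13.7 times its level in replicate 1 and 22.0 times in replicate 2. The deposited TPM of Glrx5 lay just above its deposited interval in both libraries (936 to 955 TPM in replicate 1 and 1065 to 1089 TPM in replicate 2), which belongs to posterior mean estimates of 946 TPM and 1077 TPM. The deposited Glrx5 model is 930 bases long, against 2925 bases for Glrx5-201 in GENCODE M21.

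The genes of the late, larger clusters were uneven. Isca1 lies on chromosome 13 (59755409 to 59769810) and had 85.9 TPM in replicate 1 and 95.7 TPM in replicate 2, a mean of 90.8 ± 6.96 TPM (SD, n = 2). Together with Glrx5 it was 1 of the 2 genes with the higher level in replicate 2. Its partner Isca2, on chromosome 12 (84773251 to 84775088), had 25.7 TPM in replicate 1 and 19.7 TPM in replicate 2, a mean of 22.7 ± 4.24 TPM (SD, n = 2). The level of Isca1 over that of Isca2 was 3.35 in replicate 1 and 4.87 in replicate 2. Iba57, which acts with both, was close to Isca2, with 22.5 TPM in replicate 1 and 18.5 TPM in replicate 2.

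Nfu1, a carrier that delivers clusters to lipoic acid synthase and respiratory enzymes, lies on chromosome 6 (87009236 to 87028461). Its level was 59.4 TPM in replicate 1 and 28.55 TPM in replicate 2, a mean of 44.0 ± 21.8 TPM (SD, n = 2). The spread was the widest of the 8 genes, with an SD of 49.6% of the mean, where the median over the 8 genes was 23.0% and that over detected protein-coding genes 17.6%. Bola3, a further late factor that works with Nfu1, was also higher in replicate 1, at 95.2 TPM against 49.6 TPM in replicate 2, but by scaled counts its log2 ratio of replicate 1 over replicate 2 was 0.34, against 0.97 for Nfu1.

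In the transcript tables, 4 of the 8 genes had all their signal in a single form. Lyrm4, Glrx5 and Isca2 have 1 transcript each in the tables, and Hscb-201 took all of the Hscb signal although 4 Hscb transcripts are listed. Isca1-201 took 99.3% of Isca1 in replicate 1 and 99.7% in replicate 2. The shares below are of summed transcript TPM and depend on how the authors' software divided fragments that fit several forms.

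Most of the Iscu signal was assigned to a form with the long exon 4. Iscu-203 held 68.7% of the gene in replicate 1 and 68.7% in replicate 2 (49.7 TPM and 30.1 TPM). Iscu-202, which has the longest exon 4, held 7.09% in replicate 1 and 11.3% in replicate 2, so the pair together made up 75.8% in replicate 1 and 80.1% in replicate 2. Iscu-201, the form the annotation marks as principal and whose exon 4 is joined directly to a coding exon 5, held 19.2% in replicate 1 and 7.76% in replicate 2. In TPM, Iscu-201 stood at 13.9 (deposited interval 12.1 to 15.4) in replicate 1 and 3.40 (2.22 to 4.37) in replicate 2, and these intervals did not overlap. Iscu-204, annotated as a target of nonsense-mediated decay, held 4.84% in replicate 1 and 11.4% in replicate 2, and its own last exon also ends within the extension of exon 4. The other 3 Iscu transcripts together held under 1% in either library.

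Nfs1 was divided mainly between the full-length form and the short one. Nfs1-201, with all 13 exons, held 58.5% of the gene by TPM in replicate 1 and 56.1% in replicate 2. Nfs1-202, which ends in the extended exon 3, held 37.9% in replicate 1 and 34.7% in replicate 2. The short form has a small effective length, and by expected counts Nfs1-202 held 15.3% in replicate 1 and 13.9% in replicate 2, against 80.7% and 76.2% for Nfs1-201. Nfs1-203, a form with a retained intron after exon 4, is mentioned after its values were seen, at 3.68% in replicate 1 and 9.18% in replicate 2.

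The estimated shares differed most between the libraries for Nfu1. Nfu1-202 held 86.6% of the gene in replicate 1 and 63.5% in replicate 2, with 51.4 TPM (deposited interval 44.2 to 54.3) in replicate 1 and 18.1 TPM (12.8 to 21.3) in replicate 2. Nfu1-206, with the inserted exon, held 6.49% in replicate 1 and 24.9% in replicate 2. It had 121 expected counts in replicate 1 and 159 in replicate 2. In TPM its intervals were wide and overlapped, 0.542 to 10.5 for replicate 1 and 2.86 to 12.3 for replicate 2. A difference in Nfu1-206 itself was therefore not resolved by these estimates. The shares are point estimates without intervals, so a change in the makeup of Nfu1 was not resolved either. The deposited model of Nfu1-202 is 884 bases long and that of GENCODE M21 is 950, so the exon ends printed above for Nfu1-202 are those of the later annotation.

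**Figure D3:**
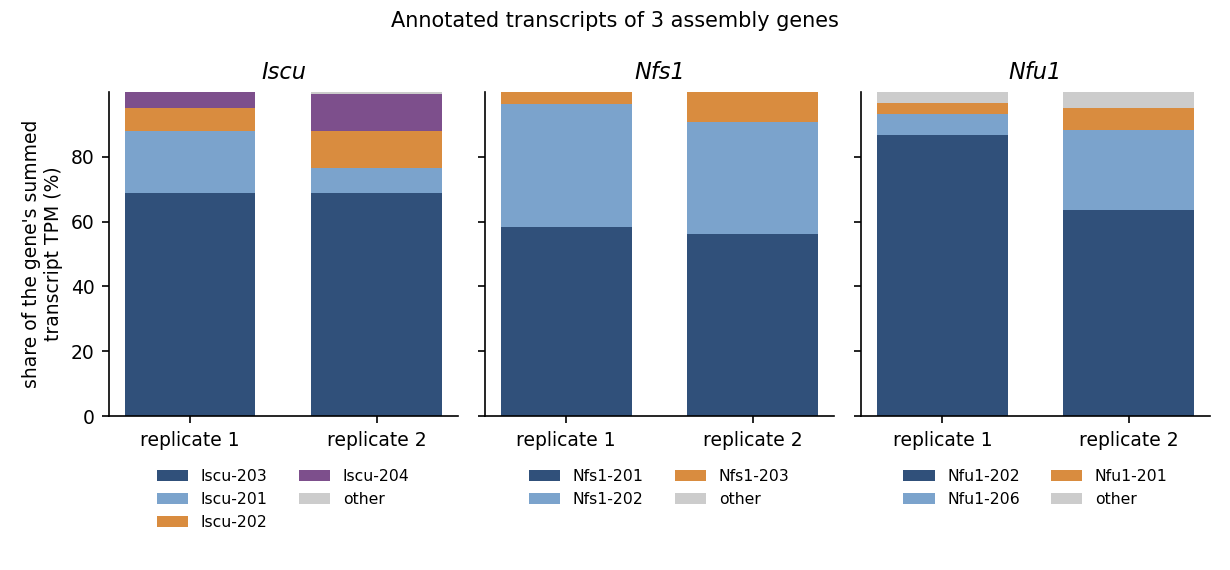
Share of each annotated transcript in the summed transcript TPM of Iscu, Nfs1 and Nfu1, in percent, with replicate 1 left of replicate 2 in each panel. Iscu-203 holds 68.7% of Iscu in both libraries, while Iscu-201 holds 19.2% in replicate 1 and 7.76% in replicate 2 and Nfu1-202 holds 86.6% in replicate 1 and 63.5% in replicate 2. The shares are point estimates, drawn without intervals.

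With 1 group, the comparison open to these data is between the libraries themselves. Expected counts, scaled by TMM library sizes, were compared gene by gene with an exact two-sided binomial test, adjusted by Benjamini-Hochberg over all 11285 genes with at least 10 counts over both libraries. A call needed a difference of at least 2-fold together with an adjusted p below 0.05. The test compares these libraries with no error other than counting noise, so a call is not evidence about a condition. By this rule 0 of the 8 assembly genes were called, where 11.2% of all tested genes and 7.30% of the detected protein-coding genes were. By edgeR's exact test with the common dispersion of the pair, 0 of the 8 were called, and 0.638% of all tested genes. That dispersion was estimated from the differences between these same libraries, so few calls were fixed in advance and the 0 adds no evidence. At an unadjusted p under 0.05, 7 of the 8 passed, and the same number passed at an adjusted p under 0.05 without the fold threshold, which 68.0% of all tested genes did.

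In 6 of the 8 genes the scaled count was higher in replicate 1, where 51.4% of all tested genes were higher there. On the log2 scale, the median ratio of replicate 1 to replicate 2 was 0.34 over the 8 genes. It was 0.02 over all tested genes and -0.01 over the detected protein-coding genes. The median size of the ratio, whatever its sign, was 0.38 over the 8 genes and 0.39 over all tested genes. Over the detected protein-coding genes that median size was 0.33. Nfu1 came nearest to a call. With 2160 counts in replicate 1 and 714 in replicate 2 its log2 ratio was 0.97, a fold of 1.96, and 513 of the 8219 detected protein-coding genes had a log2 ratio at least as large (6.24%). By deposited TPM the fold of Nfu1 was 2.08, and with total counts in place of TMM its log2 ratio was 1.18 and it was called, as were 14.2% of all tested genes.

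The other ratios were smaller. Iscu had 3416 counts in replicate 1 and 1466 in replicate 2 and a log2 ratio of 0.59, as had Lyrm4 on its far smaller counts (adjusted p = 0.011, exact binomial test). Hscb, with 1404 counts in replicate 1 and 673 in replicate 2, had a log2 ratio of 0.44, and Isca2, with 926 and 503 counts in replicates 1 and 2, had 0.25 (adjusted p = 0.00244, exact binomial test). For Nfs1 the 3269 counts in replicate 1 and 2059 in replicate 2 gave a log2 ratio of 0.04 that did not pass (adjusted p = 0.372, exact binomial test). Glrx5 had 37722 counts in replicate 1 and 30515 in replicate 2, which after scaling put it lower in replicate 1, at a log2 ratio of -0.32. Isca1 was also lower in replicate 1, at -0.27. Gene counts were whole numbers for 6 of the 8 genes, and those of Iscu and Isca1 were not, so some of their fragments had been divided with other genes.

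**Figure D4:**
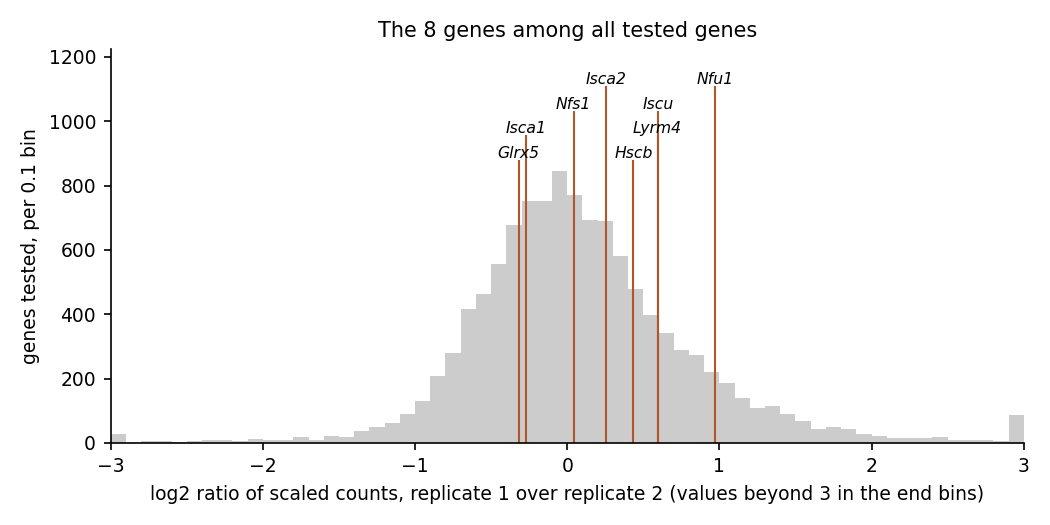
Number of tested genes by log2 ratio of scaled counts, replicate 1 over replicate 2, in bins of 0.1, for 11285 genes. Vertical lines mark the 8 iron-sulfur cluster assembly genes, which lie between -0.32 (Glrx5) and 0.97 (Nfu1), short of a 2-fold difference on either side.

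The members can be set beside 62 further genes of the same pathway in 6 lists. Of these, 56 were detected, and 6 of the 59 tested were called, each of them higher in replicate 1, where 8.37% of all tested genes were called in that direction. Of all calls, 74.9% were higher in replicate 1, and 89.6% were with total counts in place of TMM. Over the 62 genes only Ndufab1 had a mean TPM above that of Glrx5, and 7 genes were below Lyrm4.

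The 8 partners of the core and transfer steps were all detected and ran over a wide range of levels. Ndufab1, the acyl carrier protein that binds Lyrm4, had 2243 TPM in replicate 1 and 2922 TPM in replicate 2. Fdx1l, the ferredoxin also called Fdx2, had 81.5 TPM in replicate 1 and 53.9 TPM in replicate 2. Grpel2, a nucleotide exchange factor for Hspa9, was the least abundant of these 8 partners, at 1.29 TPM in replicate 1 and 1.14 TPM in replicate 2. Its relative Grpel1, at 15.4 TPM in replicate 1 and 6.36 TPM in replicate 2, was the 1 gene of the list to be called, with a log2 ratio of 1.17.

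Of 6 further late mitochondrial factors, 5 were detected. Bola1 led with 146 TPM in replicate 1 and 133 TPM in replicate 2, ahead of Bola3 and Iba57. Lias, the lipoic acid synthase that receives clusters by way of Nfu1, had 6.04 TPM in replicate 1 and 1.29 TPM in replicate 2 and was called, with a log2 ratio of 1.58 (362 counts in replicate 1 and 78 in replicate 2). Lyrm7, a factor for the cluster of respiratory complex III, had 2 counts in replicate 1 and 1 in replicate 2. All 6 genes of mitochondrial transport were detected and 0 were called. Abcb10, an inner membrane transporter of erythroid cells, led them at 226 TPM in replicate 1 and 267 TPM in replicate 2, followed by Gfer and Abcb8.

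The cytosolic assembly genes were detected in full, 11 of 11, with 0 called and a median log2 ratio of 0.36. Ciapin1, an electron carrier of that pathway, led with 454 TPM in replicate 1 and 240 TPM in replicate 2, followed by Bola2 and Ciao2b. Mms19, which takes part in handing clusters to nuclear enzymes, was lowest, at 14.0 TPM in replicate 1 and 14.7 TPM in replicate 2.

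Among the proteins that use the clusters, 12 of 13 mitochondrial genes and 14 of 18 cytosolic and nuclear genes were detected, with a median mean TPM of 110.3 and 7.66 in the mitochondrial and in the cytosolic and nuclear list. The complex I subunit genes Ndufs7 (302 TPM in replicate 1 and 259 TPM in replicate 2) and Ndufv1 (320 TPM in replicate 1 and 168 TPM in replicate 2) led the mitochondrial list, followed by Uqcrfs1, the Rieske protein of complex III. Ndufv2, another complex I subunit gene, was the 1 called gene of that list, at 165 TPM in replicate 1 and 55.7 TPM in replicate 2, and Cdk5rap1, which modifies mitochondrial tRNA, was the lowest at a mean of 0.470 TPM. Fech, the ferrochelatase gene, had 198 TPM in replicate 1 and 203 TPM in replicate 2.

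The cytosolic and nuclear list was led by Pold1, the catalytic subunit of a replicative DNA polymerase, with 422 TPM in replicate 1 and 437 TPM in replicate 2, followed by Ercc2 and Cisd2. In this list 3 genes were called: Abce1, a ribosome recycling factor, with a log2 ratio of 1.19, Elp3, the catalytic subunit of Elongator, with 1.13, and Prim2, a primase subunit, with 1.07. Xdh and Dpyd had 0 counts in both libraries. Aco1, the iron regulatory protein, had 20.01 TPM in replicate 1 and 14.8 TPM in replicate 2. By edgeR's exact test with the common dispersion, which called 72 of the 11285 tested genes in all, 0 of these 6 genes were called. Its error was estimated from the differences between these same libraries, so that 0 carries no weight for the 6.

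**Figure D5:**
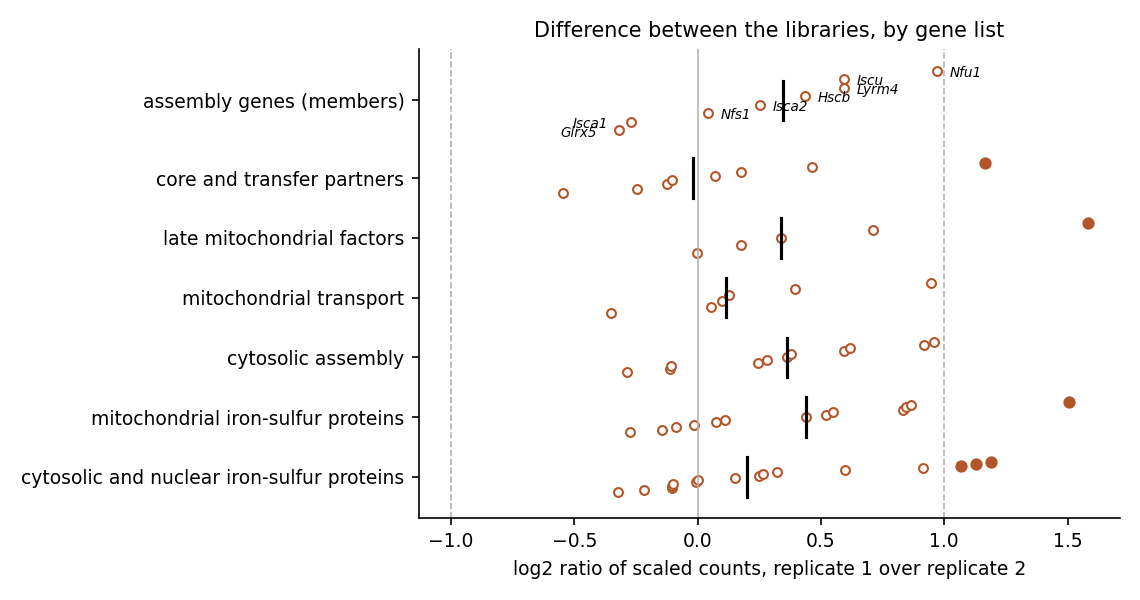
Log2 ratio of scaled counts, replicate 1 over replicate 2, for the tested genes of the 8 assembly genes and of 6 further pathway lists. Filled points were called, open points were not, black bars are list medians and dashed lines mark a 2-fold difference; the 6 filled points all lie at a log2 ratio above 1 and none is an assembly gene.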

How the data were processed

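For each of the 2 libraries the authors deposited a gene table and a transcript table. Per the notes that accompany the files, values came from transcriptome alignments on mm10 with GENCODE M4; of the aligner, quantifier and strand setting nothing was given in the sources used here. Expected counts, as deposited, are raw estimates of fragments. TPM, as deposited, is scaled by effective length, and a posterior mean TPM stands beside them. The authors' credibility intervals give a signal range in TPM. Names, positions and sequences came from GENCODE M21 on GRCm38, the same assembly.

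The members and lists were chosen with earlier results of these data known. The text names the 8 members, transcripts with at least 10% of their gene, and of each further list the 3 most abundant genes, the least abundant and every called gene. Glrx3, Hspa9, Fech and Aco1 were added for their known roles after their values were seen. A few genes covered by the naming rule are left out of the text.

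Expected counts were rounded for the test and scaled by TMM (edgeR 4.0.16; factors 1.08 and 0.930 for replicates 1 and 2). Log2 ratios carry a prior count of 0.5. Alternatives used DESeq2 1.42.0 size factors, total counts, other filters, thresholds and units, and the omission of each library. The test was tried on simulated data that held counting noise only, the noise it assumes. That trial therefore says nothing about other spread between these libraries. Scripts ran in R 4.3.3 and Python 3.11.15 with scipy 1.17.1. No unit other than these entered a result.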

Additional observations from a re-analysis of the deposited data

How the results depend on the processing

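Over alternatives for the level, the ratio and the transcript shares of the 8 genes, no ratio changed sign. Without length correction, as TMM-scaled counts (CPM), the Glrx5 share of the summed level was 69.5%, against 77.5% by TPM. With total counts in place of TMM, log2 ratios shifted by 0.21, 1 of the 8 genes was called (Nfu1), 14 of the 70 pathway genes were called, against 6, 1605 of all genes were called, against 1262, and 89.6% of all calls were higher in replicate 1, against 74.9%. With no fold threshold, 7 of the 8, 51 of the 70 and 7672 of all genes were called, and 51.0% of calls were higher in replicate 1. With edgeR's exact test at the common dispersion of the pair (a coefficient of variation of 0.309), 72 genes were called in all and 0 of the 70. These drops follow from the larger error that the test allows. That error was itself estimated from the differences between these same libraries, so few calls were fixed in advance. The short form Nfs1-202 held 14.6% of its gene by expected counts, against 36.3% by TPM. Counting error limits Lyrm4 most. Leaving out a library leaves a single value with no spread. No paired analysis was possible because there is 1 group.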
